A study of Mus musculus with 21 samples.

Results

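Axon guidance ligands and receptors were taken as every gene of the deposited tables whose symbol names a semaphorin (*Sema3* to *Sema7*), a plexin, a neuropilin, an ephrin or Eph receptor, a netrin, a netrin-G protein, a netrin receptor (*Dcc* and *Unc5a* to *Unc5d*), a Slit or a Robo. The rule found 71 of 35266 genes, 37 ligands and 34 receptors, and 65 of them were among the 16513 genes high enough to be tested. They were measured by RNA-Seq in hand-picked fluorescent neurons of the hypothalamic arcuate nucleus in 21 male mice, with the cells of 1 mouse in each library. AGRP neurons, which drive feeding, came from NPY-hrGFP mice, and POMC neurons, which restrain it, came from Pomc-topazFP mice, both on C57BL/6J. The mice were P46 to P56 and were either fed ad libitum (5 AGRP and 5 POMC libraries) or food deprived for 24 h (FD, 6 AGRP and 5 POMC libraries). Each cell type came from its own transgenic line, so cell type and line cannot be told apart. Because a library pools a population, fewer cells with a transcript and less transcript per cell cannot be told apart either.

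Axon guidance proteins steer growing axons during development, as secreted or membrane-bound cues that attract or repel a growth cone carrying the matching receptor. Semaphorins act through plexins, with neuropilins as co-receptors for the secreted class 3 members. Ephrins bind Eph receptor tyrosine kinases and can signal in both directions across a cell contact, netrins bind Dcc and the Unc5 receptors, and Slits bind Robo receptors. Many of these genes stay active in mature neurons, where their products act at synapses and dendritic spines.

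Libraries held 9822298 to 37663979 gene counts (median 19189780) from 44 to 214 cells, and 3 counts, taken as the detection floor, stood for 0.0912 to 0.295 CPM, that is, counts scaled to a common library size. The defining markers matched the labels, since *Agrp* and *Npy* summed to at least 12064 TPM in every AGRP library and at most 226 TPM in any POMC library, and *Pomc* and *Cartpt* to at least 8809 TPM in every POMC library and at most 227 TPM in any AGRP library. A fixed list of 27 markers of glial, vascular and ependymal cells summed to between 24.9 and 84.6 TPM per library, with ranges that overlapped across the 4 groups.

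Most guidance genes were detected in these mature neurons. Taking a group mean over 1 TPM as expressed, 53 members were expressed in fed AGRP neurons, 50 in FD AGRP neurons and 52 in POMC neurons of either state. Of the 71 members, 45 passed in all 4 groups and 10 passed in none. *Unc5d*, a repulsive netrin receptor that also binds FLRT adhesion proteins, had the highest mean over the 21 libraries and the highest in every group but FD POMC, with 454 ± 30.4 TPM in fed AGRP neurons (SD, n = 5), 410.4 ± 46.6 TPM in FD AGRP neurons (n = 6), 170.2 ± 40.4 TPM in fed POMC neurons (n = 5) and 253 ± 24.2 TPM in FD POMC neurons (n = 5). *Plxnc1*, the plexin that is the receptor for Sema7a, had the next highest mean over all libraries, with 180.0 ± 24.9, 74.9 ± 20.04, 148 ± 47.3 and 268 ± 24.4 TPM in the same order of groups, which gave it rank 3, 7, 2 and 1 among members. The transcript of its ligand, *Sema7a*, had group means of only 0.936 to 3.10 TPM.

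The member with the highest mean TPM over the 21 libraries was taken as the leader of each family. Among ligands the leaders were *Efna5* (125 TPM, ephrin-A family), *Efnb3* (104 TPM, ephrin-B), *Sema6a* (98.9 TPM, a transmembrane semaphorin), *Slit1* (45.1 TPM), *Sema3a* (39.3 TPM, a secreted semaphorin), *Ntng1* (30.3 TPM, netrin-G) and *Ntn4* (5.78 TPM, secreted netrin). Among receptors they were *Unc5d*, *Plxnc1*, *Nrp2* (24.5 TPM, neuropilin), *Epha4* (22.5 TPM), *Ephb6* (15.5 TPM) and *Robo1* (9.91 TPM). Within single groups other members could lead, as *Robo2* did in fed AGRP (12.95 TPM, against 3.71 for *Robo1*), *Sema3e* in fed POMC (19.4 TPM, against 14.4 for *Sema3a*), *Sema5a* in FD POMC (106 TPM, against 89.9 for *Sema6a*) and *Epha5* in FD AGRP neurons (13.5 TPM, against 11.2 for *Epha4*). The 5 netrin receptors summed to 547 TPM in fed AGRP and 279 TPM in fed POMC neurons, whereas the 4 secreted netrins summed to 11.8 and 14.7 TPM, and *Ntn1*, the classical attractant, stayed at or below 0.67 TPM in all group means.

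**Figure D1:**
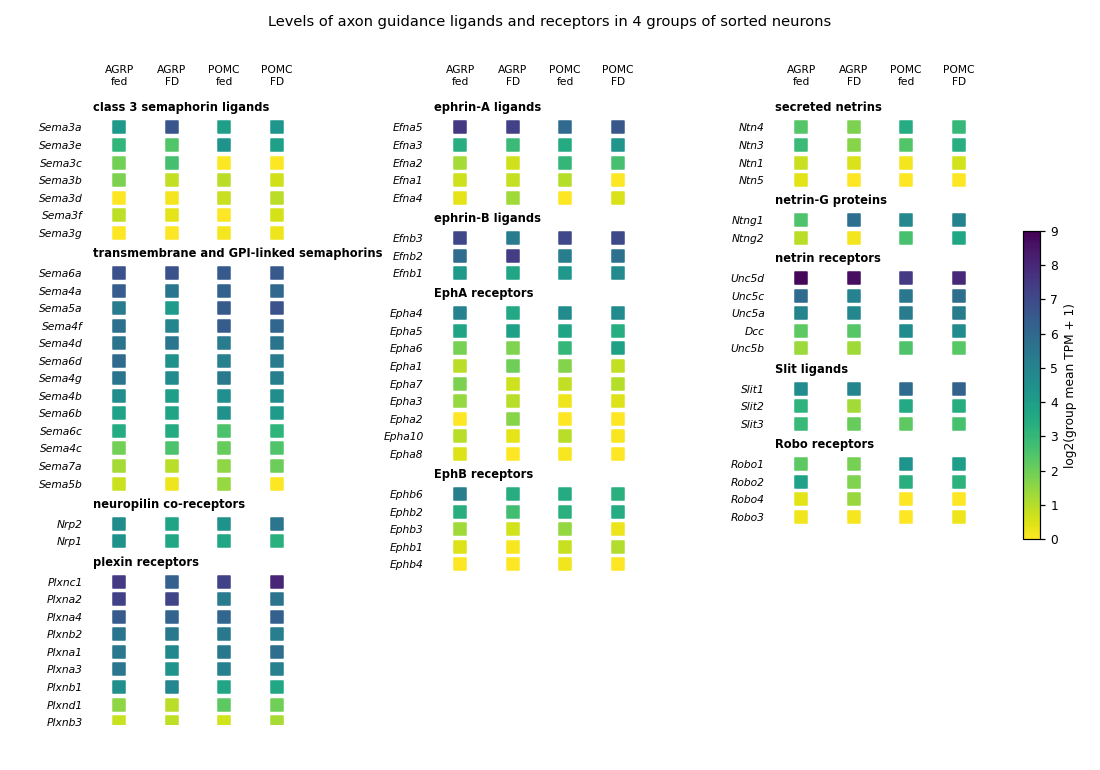
Group mean level of all 71 members as colour on a log2(TPM + 1) scale, with families in blocks and the 4 groups in columns. *Unc5d* has the highest level in all groups but FD POMC, where *Plxnc1* is higher, and *Ntng1*, *Sema3a* and *Efnb2* have their highest level in FD AGRP neurons.

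The promoters of members that changed in FD AGRP neurons are shown first, because these genes carry the main result below. Of the 71 members, 61 were matched to RefSeq promoters on the GRCm38.p6 build (77 start sites), including 12 of the 13 members called in AGRP neurons (15 start sites). Each window holds the 250 bases before the start, 5′ to 3′ on the gene's own strand, in lower case with motifs in capitals. The motifs searched on both strands were the E-box CACGTG, the AP-1 site TGANTCA, the CRE TGACGTCA and the STAT site TTCNNNGAA. No motif occurred in the windows of the 3 ligands that rose (*Ntng1* at chr3:110143473-110143722 on the minus strand, *Sema3a* at chr5:13396534-13396783 on the plus strand, *Efnb2* at chr8:8661243-8661492 on the minus strand) or in those shown for *Slit2* (chr5:47982905-47983154, plus strand) and *Plxnc1* (chr10:94944846-94945095, minus strand), whose transcripts fell. A CRE in *Epha2* (chr4:141300971-141301220, plus strand) and an E-box in *Sema6d* (chr2:124089719-124089968, plus strand) are capitalised.
Ntng1: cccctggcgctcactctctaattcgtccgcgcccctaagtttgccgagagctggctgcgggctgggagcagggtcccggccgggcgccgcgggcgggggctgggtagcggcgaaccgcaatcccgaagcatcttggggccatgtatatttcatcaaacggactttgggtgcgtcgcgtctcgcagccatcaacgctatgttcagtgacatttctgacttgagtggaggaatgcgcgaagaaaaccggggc
Sema3a: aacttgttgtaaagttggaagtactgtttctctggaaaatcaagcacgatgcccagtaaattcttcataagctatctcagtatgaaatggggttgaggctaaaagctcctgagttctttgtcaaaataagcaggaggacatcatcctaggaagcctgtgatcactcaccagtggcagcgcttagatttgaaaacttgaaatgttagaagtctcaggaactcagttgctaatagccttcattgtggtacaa
Efnb2: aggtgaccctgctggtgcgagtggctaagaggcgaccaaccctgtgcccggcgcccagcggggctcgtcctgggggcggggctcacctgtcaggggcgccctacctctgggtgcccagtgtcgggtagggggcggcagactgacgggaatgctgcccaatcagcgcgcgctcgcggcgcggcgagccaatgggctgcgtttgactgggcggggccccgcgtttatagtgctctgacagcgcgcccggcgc
Slit2: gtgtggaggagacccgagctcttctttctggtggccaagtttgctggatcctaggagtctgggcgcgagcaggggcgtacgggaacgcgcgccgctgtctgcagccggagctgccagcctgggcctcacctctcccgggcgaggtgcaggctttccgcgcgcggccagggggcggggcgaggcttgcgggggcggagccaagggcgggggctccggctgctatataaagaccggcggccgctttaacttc
Plxnc1: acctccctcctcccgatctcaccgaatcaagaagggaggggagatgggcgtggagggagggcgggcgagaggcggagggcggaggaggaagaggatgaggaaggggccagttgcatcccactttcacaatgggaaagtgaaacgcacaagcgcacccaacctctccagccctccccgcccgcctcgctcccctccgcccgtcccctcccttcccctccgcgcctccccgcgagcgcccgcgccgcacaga
Epha2: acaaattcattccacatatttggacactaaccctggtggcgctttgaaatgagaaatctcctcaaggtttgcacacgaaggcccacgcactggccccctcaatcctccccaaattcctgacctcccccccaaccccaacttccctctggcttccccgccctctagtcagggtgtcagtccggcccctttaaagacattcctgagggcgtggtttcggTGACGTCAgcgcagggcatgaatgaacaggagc
Sema6d: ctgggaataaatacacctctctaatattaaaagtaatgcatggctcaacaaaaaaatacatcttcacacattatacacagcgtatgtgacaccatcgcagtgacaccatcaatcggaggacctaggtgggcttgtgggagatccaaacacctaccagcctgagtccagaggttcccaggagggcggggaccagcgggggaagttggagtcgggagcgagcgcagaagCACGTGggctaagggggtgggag
The 15 windows of called members held an E-box in 2, a CRE in 1 and neither an AP-1 nor a STAT site. Over all 77 member windows an E-box occurred in 5.19%, an AP-1 site in 3.90%, a CRE in 1.30% and a STAT site in 2.6%, against 6.02%, 6.75%, 1.55% and 7.02% of 32851 windows genome-wide. Member promoters had a median GC content of 64.4%, against 52.4% over all windows. These matches are letters in a window and say nothing of binding.

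Food deprivation changed guidance genes in AGRP neurons in both directions. Counts were scaled by TMM to normalized CPM and tested with edgeR's quasi-likelihood F test, two-sided, and q is the Benjamini-Hochberg adjusted p over all 16513 genes, with q under 0.05 as the call. Of 65 tested members, 13 were called, with 4 (6.15%) higher and 9 (13.8%) lower in FD. Over all genes 5.87% were called higher and 4.43% lower, so the share of members that rose was near the background and the share that fell was above it. The median log2 change of members was −0.42, against −0.02 over all genes. Of 34 tested ligands 3 rose and 4 fell, and of 31 tested receptors 1 rose and 5 fell. Libraries of fed and FD mice did not overlap for 10 of the 65 members (15.4%, against 7.65% of all genes), all of them called. The called members with overlap were *Epha2*, *Plxna3* and *Ephb6*. Their direction was the same within each of the 3 sets of libraries that received ERCC spike-in RNA in the same way (9 of 9 values, the smallest set being 1 library against 1). The same libraries made the calls, so this agreement is no separate support for them. Of the 27 markers of other cells, 1, the astrocyte gene *Aldh1l1*, was also called in this contrast (0.0258 to 1.69 TPM, log2 change 5.91 ± 1.77, q = 0.0284). The 5 astrocyte markers summed to 1.73 to 8.92 TPM in fed and 1.60 to 14.5 TPM in FD AGRP libraries, and their part in the results was not tested. ERCC scaling took as library size the spike-in counts per labelled microlitre times the number of sorted cells, so it depends on both labels. When libraries were scaled this way in place of TMM, all 13 kept their direction but only *Epha2* and *Ntng1*, both higher, stayed past the threshold. Calls over all genes fell as well, from 969 higher and 731 lower with TMM to 52 and 45.

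*Ntng1* (ENSMUSG00000059857, chr3:109780040-110144011), which encodes the GPI-anchored synaptic adhesion protein netrin-G1, rose most among ligands. Its level in the 5 fed AGRP libraries was 8.97, 5.95, 7.0, 6.07 and 13.4 normalized CPM, and in the 6 FD libraries it ran from 91.5 through a median of 112 to 137 normalized CPM. Every FD library was therefore far above every fed library (+13.6-fold, log2 change 3.76 ± 0.26 (SE), q = 8.53e-11). In POMC neurons the fed libraries had 47.4, 46.9, 59.8, 40.0 and 64.6 and the FD libraries 77.8, 49.3, 48.3, 61.6 and 42.8 normalized CPM, which overlapped. FD AGRP neurons thus moved from below to above the POMC range.

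*Sema3a* (ENSMUSG00000028883, chr5:13396784-13602565), a secreted repellent that signals through Nrp1 and plexin-A receptors, was measured at 28.8, 35.7, 21.4, 28.5 and 36 normalized CPM in fed AGRP libraries. In FD it ranged from 78.6 through a median of 205 to 313 normalized CPM. The FD libraries spread widely but all lay above the fed ones (+6.85-fold, log2 change 2.78 ± 0.40, q = 2.27e-05). Its co-receptor *Nrp1* (log2 change −0.56 ± 0.44, q = 0.509) and the plexins *Plxna1* (−0.43 ± 0.17, q = 0.129) and *Plxna4* (−0.10 ± 0.17, q = 0.81) did not pass the test in the same neurons, whereas *Plxna3* fell, as given with the plexins.

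*Efnb2* and *Efnb3*, transmembrane ephrins that bind EphB receptors and Epha4, moved in opposite directions. *Efnb2* (ENSMUSG00000001300, chr8:8617434-8660773) was at 70.7, 42.7, 59.3, 56.2 and 109 normalized CPM in fed AGRP libraries and from 186 through a median of 273 to 293 in FD libraries. All FD libraries were above all fed libraries (+3.69-fold, log2 change 1.89 ± 0.26, q = 1.37e-05). *Efnb3* (ENSMUSG00000003934, chr11:69554092-69560205) was at 129, 144, 108, 119 and 114 normalized CPM in fed AGRP libraries and from 23.0 through a median of 34.5 to 64.2 in FD libraries. Here all FD libraries were below all fed libraries (log2 change −1.66 ± 0.21, 3.17-fold lower, q = 2.35e-06). The summed level of the 3 ephrin-B ligands was 207 ± 20.1 TPM in fed and 218 ± 23.8 TPM in FD AGRP neurons, so that the leading ephrin-B transcript was *Efnb3* in fed and *Efnb2* in FD neurons.

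Among the Eph receptors, *Epha4* and *Ephb6* fell. *Epha4* (ENSMUSG00000026235, chr1:77367185-77515088), which binds ephrins of both classes, was at 45.1, 42.1, 93.6, 51.9 and 44.5 normalized CPM in fed AGRP libraries and from 14.6 through a median of 20.9 to 36.1 in FD libraries. The groups did not overlap, and fed replicate 3 stood above the other fed libraries (log2 change −1.23 ± 0.28, q = 0.00423). *Ephb6*, an Eph receptor without kinase activity, fell from 37.2 ± 8.86 (n = 5) to 11.9 ± 8.84 normalized CPM (n = 6; log2 change −1.65 ± 0.46, q = 0.0181), with overlap between the groups.

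*Epha2* was the only receptor called higher, and it rested on few counts. The fed AGRP libraries held 1 count in all and the FD libraries 349, a ratio of 286 on library size (95% interval 51.1 to 11343, counting error only; q = 0.0176). The 6 FD libraries had 1, 45, 129, 115, 59 and 0 counts, so 2 of the 6 were under the floor. The endothelial markers *Cldn5*, *Flt1*, *Pecam1* and *Ly6c1* summed to 0 to 2.94 TPM in fed and 0.254 to 10.2 TPM in FD AGRP libraries, with *Cldn5* at or near 0 throughout, and their part in this result was not tested.

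The Slit and Robo genes gave a ligand and a receptor that both fell. *Slit2* (ENSMUSG00000031558, chr5:47984571-48306282), a secreted repellent, was at 11, 16.5, 19.97, 15.1 and 19.2 normalized CPM in fed AGRP libraries and from 0.85 through a median of 4.26 to 4.92 in FD libraries. No FD library reached the fed range (log2 change −2.27 ± 0.47, 4.83-fold lower, q = 0.00143). *Robo2* (ENSMUSG00000052516, chr16:73892306-74411785), a Slit receptor, was at 27.8, 44.6, 39.2, 30.0 and 30.3 normalized CPM in fed AGRP libraries and from 0.101 through a median of 6.51 to 14.7 in FD libraries. The groups again did not overlap (log2 change −2.29 ± 0.55, 4.88-fold lower, q = 0.00588). *Slit1* (log2 change 0.52 ± 0.22, q = 0.154), *Slit3* (−0.83 ± 0.71, q = 0.555) and *Robo1* (−0.29 ± 0.51, q = 0.804) did not pass the test.

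Transmembrane semaphorins and plexins that were called in AGRP neurons all fell. *Sema6d* (ENSMUSG00000027200, chr2:124089969-124667770), a membrane-bound semaphorin that binds Plxna1, was at 119, 149, 118, 144 and 88.2 normalized CPM in fed libraries and from 28.1 through a median of 45.1 to 80.4 in FD libraries. The groups came close but did not overlap (log2 change −1.34 ± 0.28, q = 0.0016). *Sema5a*, a semaphorin with thrombospondin repeats, fell from 117 ± 19.5 to 57.9 ± 16.8 normalized CPM (log2 change −1.01 ± 0.17, q = 0.000184). *Plxnc1* (ENSMUSG00000074785, chr10:94790866-94944578) fell from 363 ± 58.5 to 177 ± 42.9 normalized CPM (log2 change −1.03 ± 0.17, q = 8.56e-05). *Plxna3*, a plexin-A receptor for class 3 semaphorins, fell from 86.3 ± 16.0 to 46.6 ± 17.0 normalized CPM (log2 change −0.89 ± 0.25, q = 0.0169), with overlap between the groups.

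**Figure D2:**
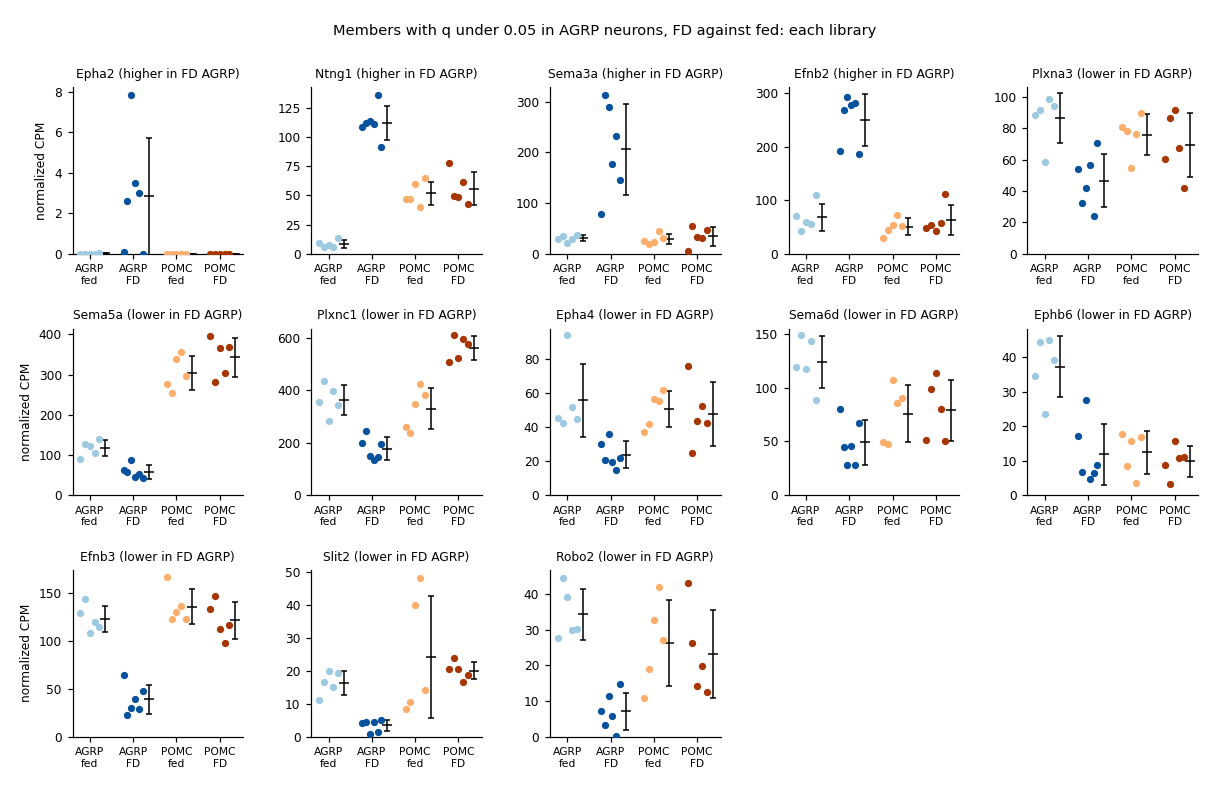
Normalized CPM of the 13 members called in FD against fed AGRP neurons, with 1 point per library in each of the 4 groups and bars for mean ± SD. *Ntng1* reached 91.5 to 137 in FD AGRP libraries, above all fed AGRP libraries, and *Efnb3* fell to between 23.0 and 64.2 in FD AGRP libraries.

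The same comparison in POMC neurons called 1 of 65 members, higher in FD, against 0.182% of all genes called higher and 0.194% called lower. At an unadjusted p under 0.05 there were 10 members. The share of all genes at that cut was not taken, so this count has no background to be read against. DESeq2 called 2 members, with 178 genes called higher and 204 lower over all 16513. Libraries of fed and FD mice did not overlap for 4 members (6.15%, against 2.35% of all genes). The called gene was *Plxnc1*, at 259, 238, 347, 424 and 381 normalized CPM in fed POMC libraries and 507, 611, 523, 596 and 575 in FD libraries. All FD libraries lay above the fed ones (+1.7-fold, log2 change 0.77 ± 0.17, q = 0.0374), a direction opposite to that in AGRP neurons that turned to −0.21 under ERCC scaling, where the median of all genes shifted to −1.11. The call was lost in 7 of the 10 fits that left out 1 POMC library, with log2 changes of 0.68 to 0.87 (without any one FD library, or without fed replicate 1 or 2). *Unc5d* (log2 change 0.48 ± 0.13, q = 0.0812) and *Nrp2* (1.03 ± 0.36, q = 0.199) came next without passing.

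Whether the effect of food deprivation differed between the cell types was tested with an interaction term, the AGRP change less the POMC change. It called 8 members, 3 higher (4.62%, against 4.08% of all genes) and 5 lower (7.69%, against 2.63% of all genes). The share called higher was thus near that of all genes. Under ERCC scaling, which moved the median of all genes to 1.04, the term called 1 member, higher. Over all genes that scaling called 100 higher and 19 lower. The AGRP change was more positive for *Ntng1* (difference of log2 changes 3.65 ± 0.34, q = 3.03e-08), *Sema3a* (2.52 ± 0.55, q = 0.00422) and *Efnb2* (1.57 ± 0.37, q = 0.00795). In POMC neurons these 3 ligands had log2 changes of 0.11, 0.26 and 0.32, none of which passed the test. The AGRP change was more negative for the receptor *Plxnc1* (−1.80 ± 0.24, q = 1.51e-05), the ligands *Efnb3* (−1.50 ± 0.30, q = 0.0016), *Sema6d* (−1.39 ± 0.40, q = 0.0321) and *Sema5a* (−1.19 ± 0.25, q = 0.00318; 0.07 under ERCC scaling), and the neuropilin *Nrp2*, a co-receptor for class 3 semaphorins (−1.72 ± 0.49, q = 0.0313). *Nrp2* was called in neither cell type alone, with a log2 change of −0.70 in AGRP neurons (q = 0.223). The call of *Nrp2* was lost without fed AGRP replicate 4, FD POMC replicate 4 or 5, or fed POMC replicate 2 or 4 (−2.14 to −1.51 over all libraries left out in turn). That of *Sema6d* was lost without FD AGRP replicate 5, fed AGRP replicate 2 or 4, FD POMC replicate 2 or 3, or fed POMC replicate 1 or 2 (−1.59 to −1.22).

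**Figure D3:**
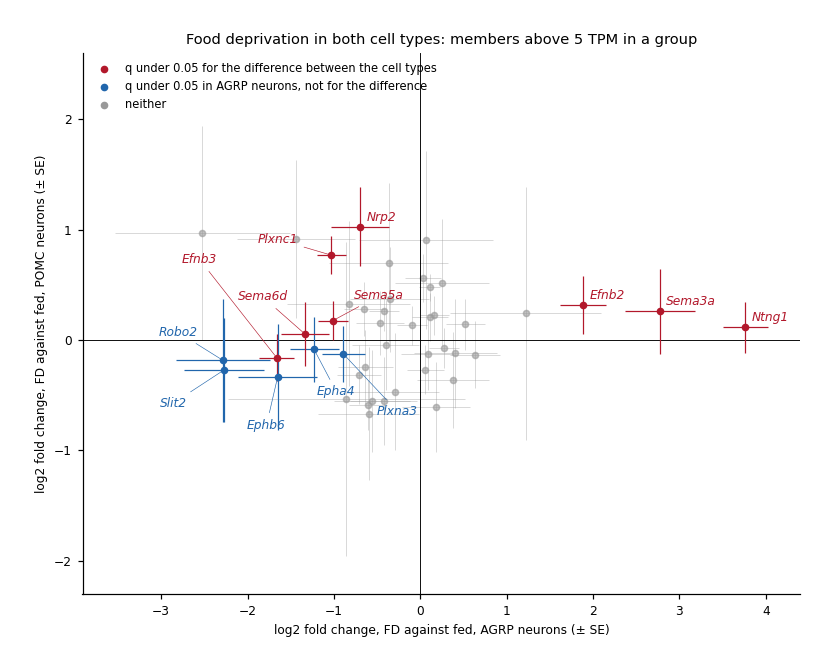
Log2 change with food deprivation in AGRP neurons (x) against POMC neurons (y) for the 46 members above 5 TPM in at least 1 group, with SE bars; red marks interaction q under 0.05, blue a call in AGRP neurons alone and grey neither. *Ntng1*, *Sema3a* and *Efnb2* lie far to the right near 0 on y, and *Plxnc1* lies at −1.03 and 0.77, the latter turning to −0.21 under ERCC scaling. That scaling moved the POMC median of all genes to −1.11.

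The cell types were next compared in the fed state, and 12 members were called. Of these, 5 were higher in AGRP neurons (7.69%, against 3.33% of all genes) and 7 lower (10.8%, against 4.24% of all genes). There were also 12 members (18.5%) whose libraries did not overlap between the cell types (8.93% of all genes), 11 of them called. Members had a median log2 difference of −0.01, as did all genes. Under ERCC scaling 2 were called, *Sema3c* higher and *Dcc* lower. Calls over all genes fell from 550 higher and 700 lower to 158 and 139.

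Members higher in fed AGRP neurons included the most abundant one. *Unc5d* (ENSMUSG00000063626, chr8:28646717-29219338) was at 1072, 1155, 1095, 1253 and 1194 normalized CPM in fed AGRP and 432, 386, 528, 565 and 516 in fed POMC libraries. These ranges were well apart (log2 difference 1.25 ± 0.13, +2.38-fold, q = 2.22e-08). *Plxna2*, a plexin-A receptor, was at 433, 360.0, 549, 559 and 504 against 87.0, 143, 174, 117 and 131 normalized CPM. The lowest AGRP library was above the highest POMC library (log2 difference 1.89 ± 0.18, +3.69-fold, q = 8.18e-09). *Efna5* (ENSMUSG00000048915, chr17:62604184-62881317), a GPI-linked ephrin, was at 222, 205, 183, 195 and 250.4 against 72.0, 68.1, 72.0, 85.7 and 86.3 normalized CPM. It too was separate between the cell types (log2 difference 1.46 ± 0.22, +2.75-fold, q = 1.93e-05).

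*Sema3c*, a class 3 semaphorin, was low in AGRP neurons and near or under the floor in fed POMC neurons. Its fed AGRP libraries had 5.22, 3.25, 1.83, 3.79 and 7.45 normalized CPM, and 4 of 5 fed POMC libraries had 0 and the other 0.257. With 422 counts against 5 in all, the ratio on library size was 95.5 (95% interval 40.6 to 296, counting error only; q = 0.000413). *Ephb6* was at 34.4, 44.3, 23.4, 45 and 39.0 in fed AGRP and 17.6, 8.41, 15.6, 3.45 and 16.9 normalized CPM in fed POMC libraries. It was separate between the groups but only just past the threshold (log2 difference 1.58 ± 0.49, +3.00-fold, q = 0.0408), and the call was lost without AGRP replicate 1, 2, 4 or 5 or POMC replicate 2, 3 or 4 (1.34 to 1.74).

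The receptors *Dcc* and *Robo1* and the ligand *Slit1* were lower in fed AGRP than in fed POMC neurons. *Dcc*, the attractive netrin receptor, was at 3.02, 6.61, 10.5, 4.32 and 2.95 in AGRP and 62, 26.6, 38.9, 40.4 and 43.2 normalized CPM in POMC libraries. All AGRP libraries were below all POMC libraries (log2 difference −2.95 ± 0.53, 7.72-fold lower, q = 0.000274). *Robo1* was at 2.06, 2.09, 6.39, 15.7 and 13.6 in AGRP and 81.6, 33.6, 54.1, 28.9 and 42.0 normalized CPM in POMC libraries. The AGRP libraries varied among themselves yet stayed below the POMC range (log2 difference −2.59 ± 0.56, 6.03-fold lower, q = 0.00239). *Slit1* was at 35.3, 28.9, 62.3, 35.6 and 42.4 in AGRP and 118, 124, 116, 82.0 and 117 normalized CPM in POMC libraries. Again the cell types did not overlap (log2 difference −1.45 ± 0.24, 2.73-fold lower, q = 6.6e-05).

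*Ntng1*, with the libraries given above, was 6.25-fold lower in fed AGRP neurons (log2 difference −2.64 ± 0.25, q = 4.95e-09) without overlap. *Sema3e*, a class 3 semaphorin that binds Plxnd1, was at 11.8, 9.58, 15.1, 9.44 and 26.3 in AGRP and 30.2, 55.1, 29.2, 33.8 and 64.2 normalized CPM in POMC libraries. The highest AGRP library came close to the POMC range (log2 difference −1.56 ± 0.41, 2.95-fold lower, q = 0.0144). The transmembrane semaphorins *Sema5a* (−1.38 ± 0.18, 2.61-fold lower, q = 2.46e-06) and *Sema4f* (−0.95 ± 0.23, q = 0.00603) were also lower in fed AGRP neurons. *Sema4f* libraries overlapped.

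In food-deprived mice 26 members were called between the cell types. Of these, 10 were higher in AGRP neurons (15.4%, against 9.28% of all genes) and 16 lower (24.6%, against 9.27% of all genes). The median log2 difference of members was −0.45, against 0.00 over all genes. Libraries of the cell types overlapped for 10 of the 26. Their direction was the same within the spike-in sets that held both cell types (20 of 20 values, the smallest set having 1 AGRP library). As these libraries also made the calls, that agreement adds no separate support. The share of all genes without overlap was not taken for this comparison. Under ERCC scaling, which moved the median of all genes to 1.10, 7 members were called higher and 1 lower. Over all genes that scaling called 892 higher and 225 lower. The fed and FD comparisons shared 11 called members, 91.7% of the 12 and 42.3% of the 26. Of these, 10 had the same direction in both and *Ntng1* the opposite, being 2.01-fold higher in FD AGRP than in FD POMC neurons (log2 difference 1.01 ± 0.23, q = 0.00175). The count of calls was larger in FD, where 1 more AGRP library entered, and the difference between the counts was not itself tested.

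Members higher in FD AGRP neurons included the ligands *Sema3a* (log2 difference 2.6 ± 0.40, q = 1.31e-05), *Efnb2* (2.00 ± 0.27, q = 1.37e-06) and *Efna5* (0.93 ± 0.21, q = 0.00152). They also included the receptors *Plxna2* (1.83 ± 0.18, q = 5.39e-09), *Plxnb1*, a receptor for class 4 semaphorins (1.47 ± 0.30, q = 0.000523), and *Unc5d* (0.88 ± 0.12, q = 2.89e-06). *Sema3c* had 1098 counts against 5 (ratio 164, 95% interval 69.9 to 505, counting error only; q = 4.5e-05). The receptors *Epha2* (q = 0.00462) and *Robo4*, a Robo known from endothelial cells (q = 0.00278), were at 0 in all FD POMC libraries, so that the FD AGRP group means were at least 15-fold and at least 11.6-fold higher against a floor of 3 counts per library. Single FD AGRP libraries held 0 to 129 counts of *Epha2* and 7 to 185 of *Robo4*. Endothelial markers summed to 0.254 to 10.2 TPM in FD AGRP and 0.34 to 2.23 TPM in FD POMC libraries, and *Ly6c1* was at 2.23 TPM in FD AGRP neurons and 0 in the other groups. Their part in these differences was not tested.

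Ligands lower in FD AGRP neurons were *Slit2* (log2 difference −2.57 ± 0.47, q = 0.000155), *Sema5a* (−2.57 ± 0.18, q = 5.32e-12), *Ntn3*, a secreted netrin (−2.0 ± 0.69, q = 0.0406), *Efnb3* (−1.65 ± 0.21, q = 5.07e-07), *Sema3e* (−1.43 ± 0.39, q = 0.0083), *Slit1* (−1.07 ± 0.22, q = 0.000635; 0.21 under ERCC scaling) and *Sema4f* (−0.97 ± 0.22, q = 0.00145; 0.02 under ERCC scaling). *Ntng2*, the other netrin-G protein, was at 0.116 ± 0.0911 normalized CPM in FD AGRP (n = 6) and 9.03 ± 0.796 in FD POMC libraries (n = 5; q = 0.000153). Its AGRP values were near or under the floor. In a later Gencode annotation than the one counted, exons of *Ntng2*, *Ntn3*, *Nrp1*, *Plxna1*, *Plxna4*, *Plxnb1* and *Plxnc1* overlap another gene. Counting ignored strand and left out reads that could not be given to a single gene, so the values of these members are uncertain to that extent.

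Receptors lower in FD AGRP neurons were *Dcc* (log2 difference −2.42 ± 0.49, q = 0.000488), *Robo1* (−2.42 ± 0.53, q = 0.00109), *Epha6* (−2.37 ± 0.79, q = 0.0331), *Robo2* (−1.72 ± 0.54, q = 0.0235), *Plxnc1* (−1.66 ± 0.17, q = 9.27e-09), *Nrp2* (−1.64 ± 0.34, q = 0.000728), *Epha4* (−1.01 ± 0.28, q = 0.011; 0.52 under ERCC scaling) and *Plxna1* (−0.83 ± 0.17, q = 0.000761; 0.40 under ERCC scaling). In fed mice neither *Plxnc1* (0.14 ± 0.17, q = 0.76) nor *Sema3a* (0.08, q = 0.952) had passed the test. Among the FD calls, *Epha6*, *Ntn3*, *Robo2*, *Epha4* and *Sema3e* lost theirs without certain single libraries. These were FD AGRP replicate 2, 3 or 5 or FD POMC replicate 1, 4 or 5 for *Epha6* (−2.76 to −2.13), and FD AGRP replicate 4 or 6 or FD POMC replicate 1, 2, 4 or 5 for *Ntn3* (−2.41 to −1.74). They were FD AGRP replicate 2 or FD POMC replicate 1 for *Robo2* (−2.07 to −1.37), FD POMC replicate 1 for *Epha4* (−1.18 to −0.78) and FD POMC replicate 3 for *Sema3e* (−1.63 to −1.10).

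**Figure D4:**
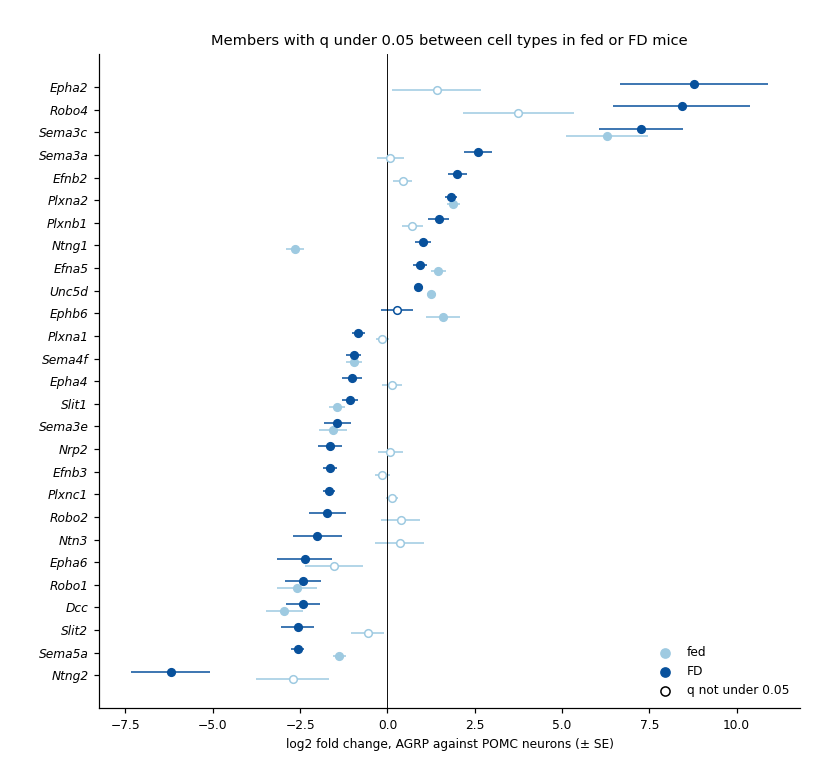
Log2 difference of AGRP against POMC neurons for the 27 members called in fed (light) or FD mice (dark), with filled points for q under 0.05 and SE bars. *Ntng1* lies at −2.64 in fed and 1.01 in FD mice, and under ERCC scaling the FD values of *Plxna1*, *Sema4f*, *Epha4* and *Slit1* turned from lower to higher. That scaling moved the FD median of all genes to 1.10.

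Other genes of the pathway were taken from 2 lists. The first held 50 genes for signalling inside the growth cone, all tested, of which 6 (12%) rose and 1 (2.00%) fell in FD AGRP neurons (5.87% and 4.43% of all genes), with a median log2 change of 0.18. The genes that rose included *Pak3*, a kinase downstream of Rac and Cdc42 (539 to 1086 normalized CPM, log2 change 1.01 ± 0.13, q = 3.86e-06), *Rac1* (0.42, q = 0.0274), *Cfl2*, an actin-severing cofilin (0.67, q = 0.00387), *Chn1*, a Rac GTPase-activating protein used by Eph receptors (0.58, q = 0.0217), and *Ptk2*, the focal adhesion kinase (0.99, q = 0.01). *Trio*, an exchange factor used downstream of Dcc, fell (−0.58, q = 0.0119).

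The second list held 25 co-receptors and other cues, 22 of them tested, of which 1 (4.55%) rose and 5 (22.7%) fell in FD AGRP neurons (5.87% and 4.43% of all genes), with a median log2 change of −0.34. *Lrrc4c*, which encodes the binding partner of netrin-G1, fell from 92.1 to 32.0 normalized CPM (log2 change −1.53 ± 0.22, q = 1.81e-05) in the neurons where *Ntng1* rose, and its change differed from that in POMC neurons (interaction −2.02). *Neo1*, a receptor related to Dcc (−0.91, q = 4.68e-05), the adhesion co-receptors *Nrcam* (−0.85, q = 4.71e-05) and *Chl1* (−0.64, q = 0.0178), and *Boc*, a hedgehog co-receptor at a low level (1.52 to 0.0394 normalized CPM, q = 0.0385), fell as well. *Itgb1*, an integrin subunit, rose (0.64, q = 0.0386).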

How the data were processed

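RNA from sorted AGRP or POMC neurons of single mice was amplified and sequenced, with ERCC spike-in RNA added. The authors demultiplexed with CASAVA, trimmed with cutadapt 1.7.1, removed contaminating reads with Bowtie2 2.1.0, aligned with STAR 2.4.0i to mm10 and Gencode VM4 basic, and deposited counts per gene from HTSeq 0.6.1p1, counted without strand. The TPM values, also deposited by the authors, used summed exon length. The 92 ERCC rows and 5 HTSeq summary rows stayed out of library sizes. Reads in no feature made up 26.05% to 55.9% of the sum of these reads and the gene counts. Counts limit the precision of low genes, and counting intervals and floors cover counting error only.

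Groups came from the labels. Genes with CPM over 1 in at least 3 libraries (16513 of 35266) were scaled by TMM and fitted in edgeR 4.0.16 (R 4.3.3) with 4 group means over 21 libraries. Each contrast was tested two-sided by the quasi-likelihood F test with Benjamini-Hochberg q under 0.05, and scripts were tested on simulated data. Alternatives were limma-voom (limma 3.58.1), DESeq2 1.42.0, RLE and ERCC scaling, no count filter, the 2 groups alone, replicate and spike-in set blocks, sorted cells as a covariate, each library left out in turn, and the study's thresholds (mean CPM over 20, log2 change over 1). Every member with q under 0.05 is named, and values per library (lowest, median and highest in the group of 6) are given for up to 5 members in each direction with the largest change and no overlap in the 2 food deprivation contrasts and the fed cell type contrast. The leading member of each family by TPM is also named. Some other members were named after their values were seen, as partners of a named gene. Members and gene lists were chosen with earlier results of these data known. Figures were drawn with matplotlib 3.10.9.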

Additional observations from a re-analysis of the deposited data

Results flagged for a closer look

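A gap test within groups of 5 or 6 libraries was made in 52 groups of values and picked out 5 libraries, and chance alone picks about 1 in 20 groups. In fed AGRP neurons, *Epha2* was at 0.0536 normalized CPM in replicate 5 and 0 in the others, *Plxna3* was at 58.5 in replicate 3 against 88.2 in the next lowest, and *Epha4* was at 93.6 in replicate 3 against 51.9 in the next highest. In fed POMC neurons, *Sema3c* was at 0.257 in replicate 5 and 0 in the others, and *Slit1* was at 82 in replicate 4 against 116 in the next lowest. The *Epha2* and *Sema3c* groups were near 0 throughout, and a single library above 0 among zeros always meets this test. The *Epha2* library held 1 count, under the floor of 3.

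The change with food deprivation differed between AGRP and POMC neurons by the interaction term for 8 members, as the AGRP log2 change less the POMC log2 change. The values were 3.65 for *Ntng1*, 2.52 for *Sema3a*, 1.57 for *Efnb2*, -1.19 for *Sema5a*, -1.39 for *Sema6d*, -1.5 for *Efnb3*, -1.72 for *Nrp2* and -1.8 for *Plxnc1*. In 4 of the 8 the fitted changes had opposite signs in the 2 cell types, and 7 of the 8 were called for food deprivation in AGRP neurons against 1 (*Plxnc1*) in POMC neurons.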

How the results depend on the processing

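Scaling by ERCC spike-ins moved every count of calls, to 2 for FD against fed AGRP neurons, 0 for POMC neurons, 2 between the fed cell types, 8 between the FD cell types and 1 for the interaction. Over all genes it also left fewer calls in every contrast. It turned the direction of *Plxnc1* in POMC neurons (-0.21), of *Plxna1* (0.40), *Sema4f* (0.0199), *Epha4* (0.52) and *Slit1* (0.21) between the FD cell types, and of *Sema5a* in the interaction (0.0737). In the same contrasts the median of all genes moved to -1.11, 1.10 and 1.04. The cause was not tested. With the study's thresholds, which also need a mean CPM over 20 and a log2 change over 1, 16 members were called between the FD cell types and 0 in POMC neurons. The share of all genes under these thresholds was not taken. At q under 0.05 alone, 0.182% of all genes were called higher and 0.194% lower in POMC neurons. DESeq2 called 2 members in POMC neurons, with 178 genes higher and 204 lower over all genes. A spike-in set block called 0 members there, with 34 genes higher and 32 lower over all 16513. Leaving out 1 library gave 13 to 14 calls in AGRP neurons, 0 to 1 in POMC neurons, 11 to 13 between fed and 22 to 28 between FD cell types, and 6 to 10 for the interaction. It gave 52 to 56, 51 to 53, 51 to 55 and 51 to 52 members expressed in fed AGRP, FD AGRP, fed POMC and FD POMC neurons, and 5 TPM as the minimum gave 38, 35, 42 and 45. Under DESeq2, limma-voom, RLE scaling and no count filter, all 60 called values of single members kept their direction and their call. Fitting the 2 groups alone ended the calls of *Ntn3* and *Robo2* between FD cell types. Sorted cells as a covariate ended those of *Epha6* (FD) and *Ephb6* (fed), and the spike-in set block ended these, *Plxnc1* in POMC neurons, *Robo2* (FD) and *Sema6d* (interaction). All 13 calls in AGRP neurons were kept in every fit that left out 1 library.

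The replicate numbers of the labels did not pair the samples. Across 20 pairs of the same number, deviations from the group means correlated at -0.209 to 0.133, over 0.1 in 1. A fit with the replicate block called 0 members in POMC neurons, with 22 genes higher and 26 lower over all 16513. That fit ended the calls of *Plxnc1* in POMC neurons, *Nrp2* in the interaction and *Ntn3* between FD cell types, and kept the other 57. Members such as *Epha2*, *Robo4* and *Sema3c* had few or no counts in some groups, which limits the precision of their ratios.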
